A study of Homo sapiens with 9 samples.

Results

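The genes described here are 36 protein-coding genes of the NF-kappaB pathway and of the cytokines and chemokines it is known to control, out of 64253 gene entries in the count table. These symbols have 44 entries, 8 of them for TNF and 2 for CCL5. The entry with the most reads was used, which in each case was the one held in the reference annotation. The 36 genes were chosen by gene symbol, by a rule that uses no measured value, though with earlier results of these data known. They fall into the Rel family transcription factors, their inhibitors, survival and adhesion genes, cytokines, chemokines and colony-stimulating factors. The samples were 9 RNA sequencing libraries of EPC2, a human cell line that the labels give as normal squamous epithelium of the esophagus. Of these, 3 were from untreated cells, 3 from cells given an empty vector with Lipofectamine 2000, a cationic lipid used to deliver DNA, and 3 from cells given a plasmid encoding FOXF1, a forkhead transcription factor, with the same reagent. The time between transfection and RNA extraction is not given in the sources used here, and each level averages cells that took up DNA with cells that did not. Triplicates are called biological in the design text.

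NF-kappaB is a dimer of Rel family proteins that is held inactive in the cytoplasm by inhibitory IkappaB proteins. Signals such as tumour necrosis factor, interleukin 1 or microbial products activate the IkappaB kinase, the inhibitor is degraded, and the dimer enters the nucleus and binds kappaB sites in promoters. Its targets include inflammatory cytokines and chemokines as well as its own inhibitors, which end the response. In esophageal epithelium the pathway is known for the chemokines made during reflux injury.

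Library totals ranged from 34390666 to 39973289 reads, so that 0 reads allow a level of up to 0.0681 to 0.0883 CPM (counts per 1000000 reads on TMM-scaled library sizes, which correct for differences in RNA composition, taking 3 reads as the limit, for counting error only). FOXF1 had 141 to 367 reads in the plasmid libraries, 0 to 6 with the empty vector and 0 or 1 in untreated cells. Of 11 markers of esophageal squamous epithelium, only CNFN exceeded 1 CPM, and TP63, SOX2 and CRNN had no read in any library, while the basal keratin KRT5 had 8 to 19 reads per library, so the labelled cell type is not borne out by its defining markers. The sum of this list was 15.1 to 17.3 CPM in untreated libraries, 9.58 to 13.7 for the empty vector and 12.4 to 14.7 for FOXF1, with every transfected library below every untreated one. Most of this sum was CNFN, at 13.2 CPM on average. Of 8 leukocyte markers, CD14 averaged 10.05 CPM and the others were below 1 CPM, with PTPRC, CD3E and LYZ at 0 in all 9 libraries. The summed leukocyte list ran from 8.76 to 9.90 CPM in untreated cells, 9.88 to 11.2 in empty vector cells and 10.4 to 11.7 in FOXF1 cells. The 5 endothelial and 5 fibroblast markers were all below 1 CPM. The endothelial sum was 0.284 to 0.711 CPM in untreated libraries, 0.706 to 0.791 for the empty vector and 0.597 to 0.933 for FOXF1. Transcripts of the mitochondrial genome made up 20.9% ± 2.001 of reads in untreated cells, 11.2% ± 0.761 in empty vector cells and 14.1% ± 0.517 in FOXF1 cells (SD, n = 3).

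Promoter sequence was set beside the expression of the 36 genes because both highly expressed and nearly silent members are textbook NF-kappaB targets. RefSeq promoter windows (GRCh38.p14, from 250 bases before to 50 bases after a transcription start) were held for 28 of the 36 genes, in 41 windows. Each window was searched on both strands for the kappaB consensus and for GGAATTTCC, which can overlap a consensus match. The windows below are shown on the strand of the gene, the plus strand unless given otherwise, with matches to either motif in capitals.

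CXCL1, chr4:73869299-73869339: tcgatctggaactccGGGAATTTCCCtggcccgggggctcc
CXCL2, chr4:74099248-74099288, minus strand: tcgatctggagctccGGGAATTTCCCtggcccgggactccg
CXCL3, chr4:74038743-74038783, minus strand: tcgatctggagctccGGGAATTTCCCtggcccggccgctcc
CXCL8, chr4:73740463-73740501: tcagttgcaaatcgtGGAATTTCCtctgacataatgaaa
IL6, chr7:22727112-22727151: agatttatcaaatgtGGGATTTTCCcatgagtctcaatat
ICAM1, chr19:10270919-10270957: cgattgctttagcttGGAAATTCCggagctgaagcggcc
NFKB1, chr4:102501295-102501334: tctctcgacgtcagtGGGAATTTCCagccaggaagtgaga
NFKB2, chr10:102394456-102394524: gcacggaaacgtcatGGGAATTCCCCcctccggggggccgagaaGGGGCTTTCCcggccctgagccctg
NFKBIA, chr14:35404806-35404845, minus strand: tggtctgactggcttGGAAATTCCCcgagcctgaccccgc
TNFAIP3, chr6:137867177-137867228: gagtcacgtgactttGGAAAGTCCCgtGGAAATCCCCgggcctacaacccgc
TNIP1, chr5:151081052-151081091, minus strand: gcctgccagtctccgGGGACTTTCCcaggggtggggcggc

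The CXCL1, CXCL2 and CXCL3 matches began 79, 78 and 79 bases before the start, and the IL6, NFKBIA and TNFAIP3 matches 73, 81 and 67 bases before it. Either motif was present in 17 of the 28 genes with a window. By window the count was 19 of 41 (46.3%), against 11.5% of all 35114 windows in the table. The genes were chosen as members or known targets of the pathway, so a contrast with all windows describes the list and tests nothing. GGAATTTCC, with or without a consensus match, was present in 11 of the 41 windows and in 0.461% of all windows. Either motif was found in 13 of 20 genes with enough reads to be tested and in 4 of 8 with fewer. The windows of RELA held neither motif, TNIP1 had it in 1 of its 2 windows, and no window was held for CCL2. A match is a run of letters, and binding was not measured.

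**Figure D1:**
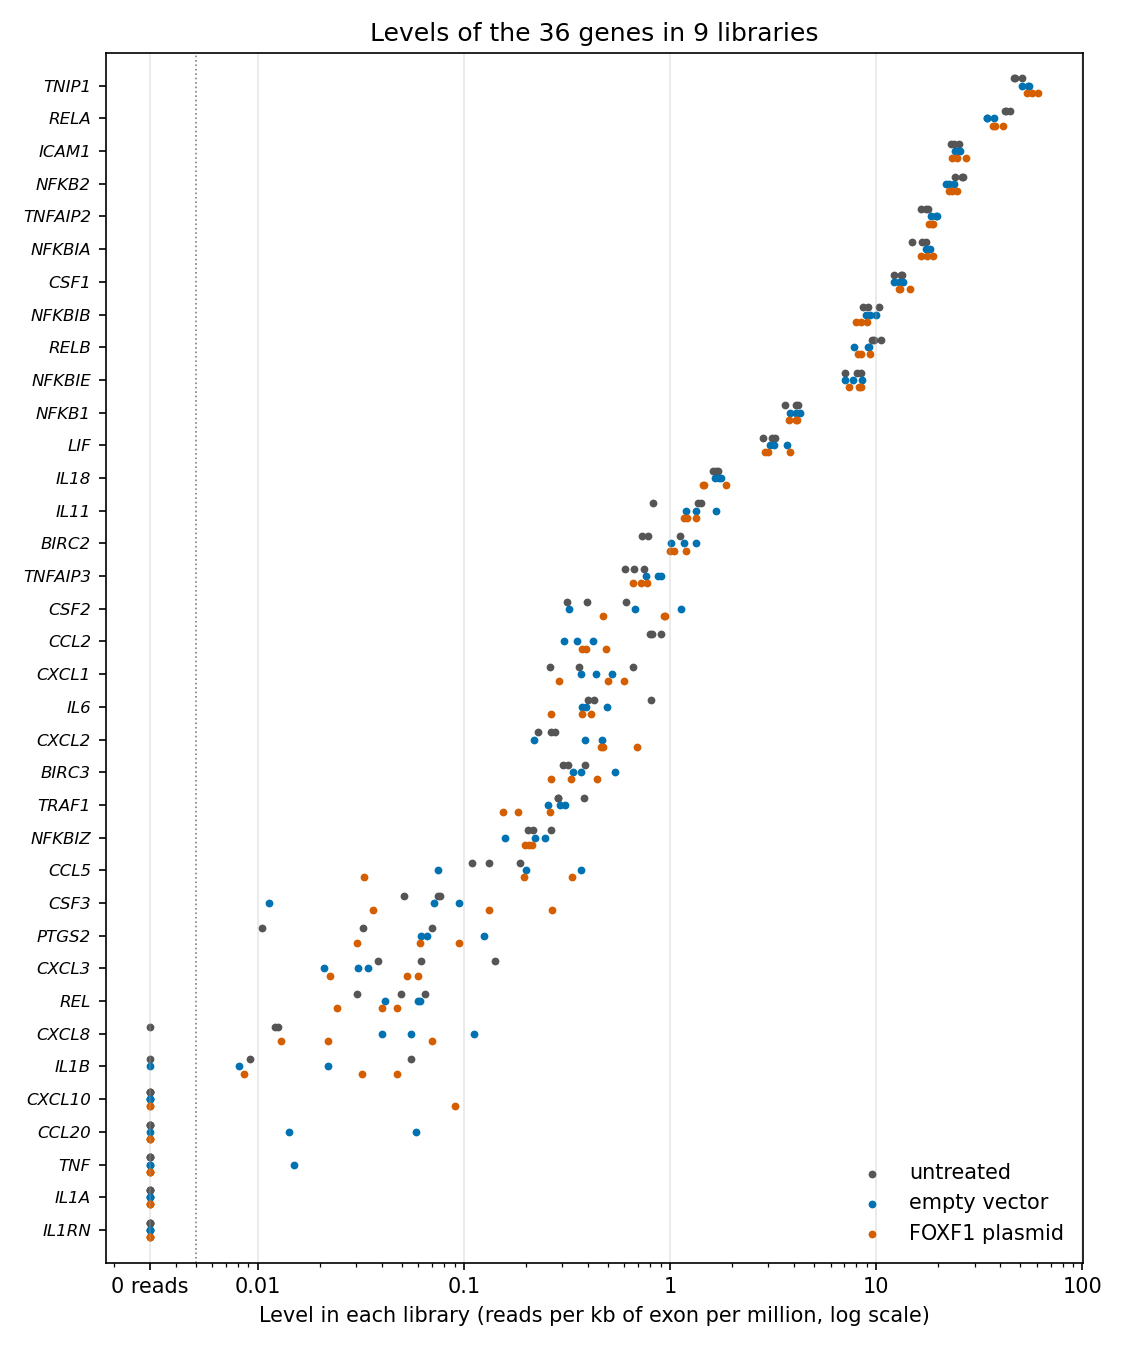
Level of each of the 36 genes in the 9 libraries, in CPM per kb of exon on a log scale, with a point for each library and libraries without a read placed left of the dotted line. TNIP1 and RELA are at the top at 53.1 and 39.0, and IL1A and IL1RN, with no read in any library, are at the bottom.

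The Rel factors RELA and NFKB2 and the inhibitor TNIP1 were among the most abundant genes of the set. Few or no reads were counted for TNF, whose level is uncertain as given below, and for the interleukin 1 genes. On a scale of CPM per kb of exon, 15 of the 36 genes averaged at least 1 over the 9 libraries and 21 were below it. TNIP1, an inhibitory partner of the ubiquitin-editing protein A20, was the highest at 53.1 ± 4.69, followed by the transactivating subunit RELA at 39.0 ± 3.76, the adhesion molecule ICAM1 at 24.6 ± 1.254 and NFKB2, the precursor of the noncanonical subunit p52, at 23.9 ± 1.54 (SD, n = 9). Of the 8 chemokines none reached 1 on this scale, and the highest, CCL2, averaged 0.539 ± 0.232. The exon length is that of the exons of all annotated transcripts of a gene, merged. For CCL2 and CXCL3 these merge into 1 block that spans the whole gene, which can lower their values per kb. A shorter length could place CCL2, at 1.07 CPM on average, above 1. The ranking of neighbours is loose in places: RELB and NFKBIB were both at 9.08, with SDs of 0.825 and 0.713.

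A total of 27 genes had enough reads to be tested, and 9 did not. IL1A and IL1RN, which encode an interleukin 1 and its receptor antagonist, had no read in any library. TNF had 1 read in all, in an empty vector library. It has 8 entries in the count table, of which the reference annotation holds 1, and how reads matching several copies were counted is not given in the sources used here, so its level is uncertain. IL1B had 0 to 6 reads per library, CCL20 0 to 4, CXCL10 0 to 4, CXCL3 2 to 11, CXCL8 0 to 11 and CSF3 1 to 24. CXCL8, the neutrophil attractant interleukin 8, had 1, 1 and 0 reads in untreated cells, 5, 4 and 11 in empty vector cells and 2, 1 and 6 in FOXF1 cells. The untreated and empty vector libraries did not overlap for CXCL8. Without a filter on low counts its log2 fold change between them was 2.87, on 2 against 20 reads, and edgeR gave an adjusted p of 0.181. CXCL10, an interferon-responsive chemokine, was read only in FOXF1 plasmid replicate 3, with 4 reads. CSF3 had 4, 6 and 6 reads in untreated cells, 1, 7 and 9 in empty vector cells and 24, 10 and 3 in FOXF1 cells, so the plasmid libraries were both the highest and among the lowest. With no filter none of the 7 with a read was called in any of the 3 comparisons, and the smallest adjusted p was that of CXCL8.

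Empty vector libraries were first set against untreated ones, which asks what transfection alone does. RELA and CCL2 were lower and no gene of the set was higher: 2 of 27 passed an adjusted p below 0.05, whereas 19.6% of all 16366 tested genes did (10.2% higher and 9.37% lower). At an unadjusted p below 0.05 there were 3 higher and 4 lower of the 27, against 31.5% of all tested genes. The median log2 fold change of the 27 was 0.05 and that of all tested genes 0.04. The libraries of the groups did not overlap for 4 genes that were higher and 4 that were lower, against 32.6% of all genes (17.4% higher and 15.3% lower). The higher genes were NFKBIA, TNFAIP2, TNFAIP3 and TNIP1, and the lower ones NFKB2, RELA, RELB and CCL2. Scaling by library total alone, without a composition factor, moved the median over all genes by 0.245 on the log2 scale. On that scale 10 of the 27 were called higher (NFKB1, NFKBIA, NFKBIB, TNFAIP2, TNFAIP3, TNIP1, BIRC2, ICAM1, LIF and CSF1) and 1 lower (CCL2), when 37% of all tested genes were called, and the share of higher calls among all called genes went from 52.2% to 94.4%.

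The comparison of FOXF1 libraries with untreated ones combines transfection with FOXF1. TNIP1 was higher and CCL2 lower, so again 2 of 27 passed, against 8.52% of all tested genes (4.63% higher and 3.89% lower), and 2 higher and 4 lower had an unadjusted p below 0.05 (21.9% of all genes). Groups did not overlap for 3 higher genes (TNFAIP2, TNIP1, CXCL2) and 4 lower ones (RELA, RELB, TRAF1, CCL2), against 26.6% of all genes (14.1% higher and 12.6% lower). The median log2 fold change was 0.04 for the 27 and 0.02 for all. By library total alone 5 were higher (NFKBIA, TNFAIP2, TNIP1, ICAM1 and CSF1) and 0 lower, when 15.3% of all tested genes were called, with a shift of 0.148 in the median of all genes, and higher calls made up 92.8% of all calls against 54.3%.

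Both transfected groups received DNA and lipid, and by their labels they differ in the FOXF1 insert. None of the 27 genes was called by the edgeR quasi-likelihood test, by DESeq2 or by limma-voom, and none had an unadjusted p below 0.05, against 9.43% of all tested genes. In all, 0.055% of tested genes were called. The smallest adjusted p of the 27 was 0.558, for TRAF1, and no gene had groups that did not overlap, whereas 13% of all tested genes did (7.33% higher and 5.68% lower). Fold changes on the log2 scale ran from -0.54 (REL) to 0.59 (CXCL2). For 20 of the 27 the 95% interval of the difference lay within a 2-fold change in either direction, among them all 17 whose log2 CPM averaged 1 or more. The intervals of the rarer genes reached further, for example from -1.66 to 0.76 for PTGS2, and do not exclude larger differences. Because both transfected groups were compared with the same untreated libraries, their values in those comparisons are not independent of each other.

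**Figure D2:**
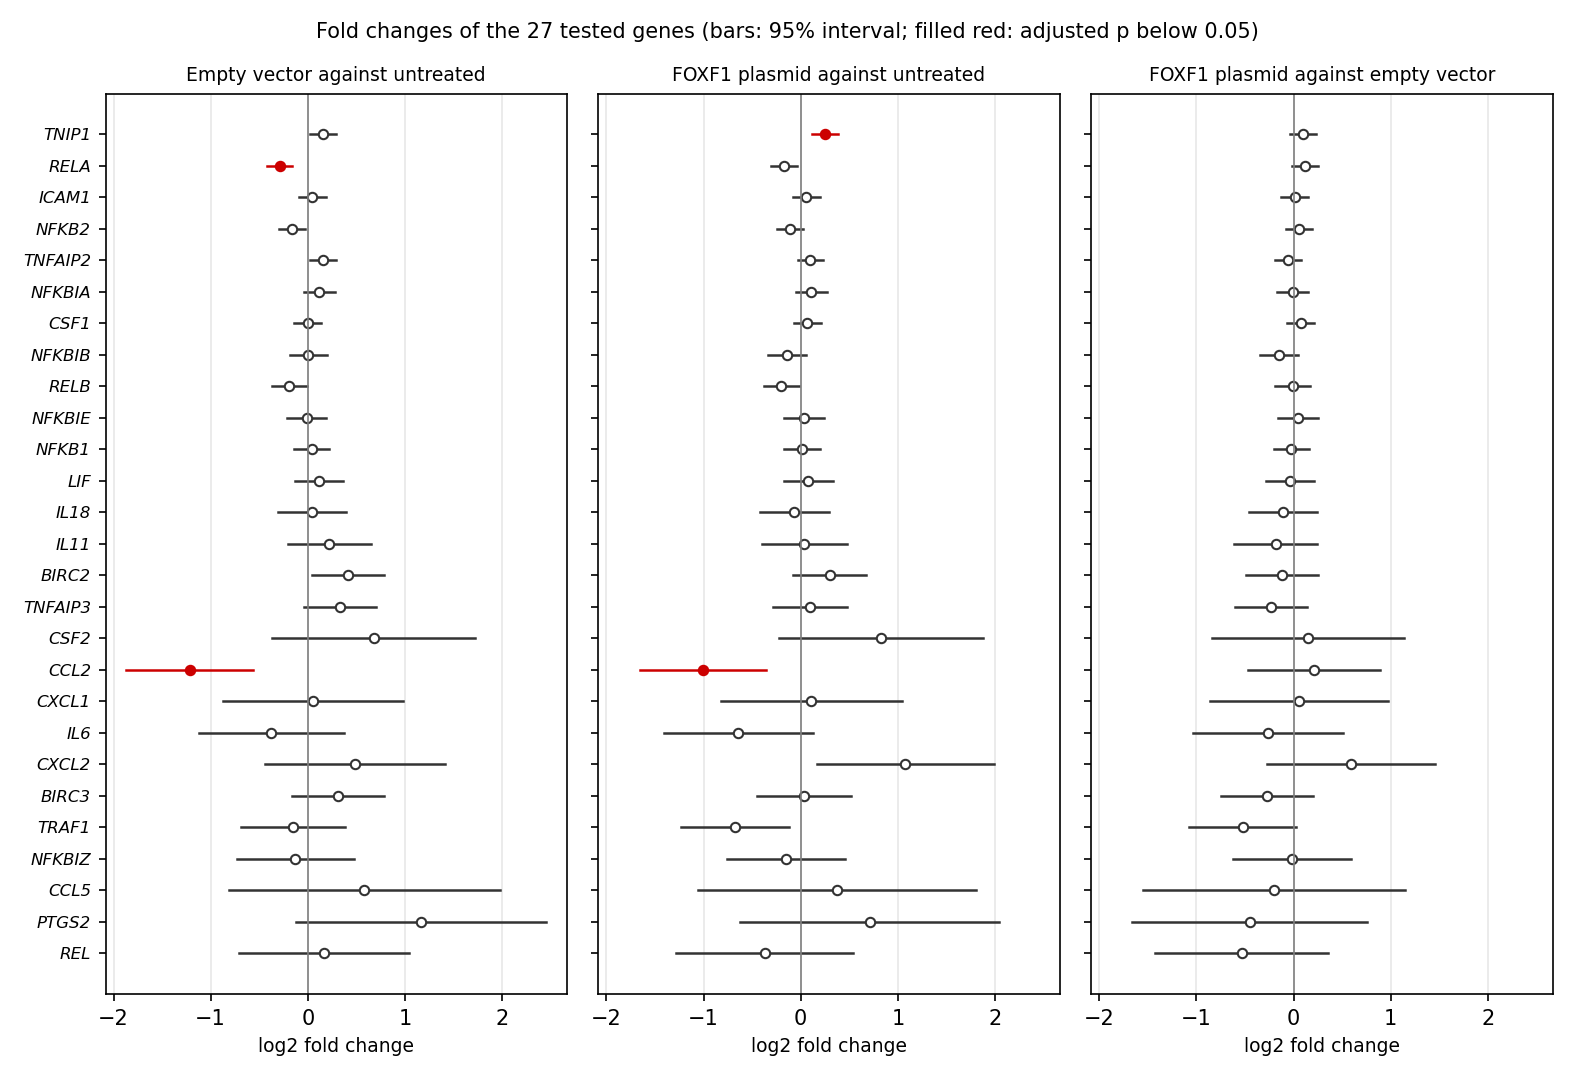
Log2 fold changes of the 27 tested genes in the 3 comparisons, ordered by level, with 95% intervals as bars and genes at an adjusted p below 0.05 in filled red. The coloured points are RELA and CCL2 on the left, TNIP1 and CCL2 in the middle and none on the right, and intervals widen toward the rare genes at the bottom.

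Among the Rel family factors, RELA (chromosome 11, 65653596 to 65663094, minus strand, GRCh38) was read at 244, 230.5 and 234 CPM in untreated cells, 204, 187 and 188 in empty vector cells and 205, 224 and 201 in FOXF1 cells. All 6 transfected libraries lay below the 3 untreated ones. RELA fell by 0.29 ± 0.06 (SE) on the log2 scale with the empty vector, from 235.9 ± 6.95 to 193.1 ± 9.23 CPM (adjusted p = 0.00139). With the FOXF1 plasmid it stood at 209.7 ± 12.4 CPM, a log2 fold change of -0.17 against untreated cells that did not pass (adjusted p = 0.0974) except in DESeq2 (adjusted p = 0.0407). The fall is relative to the other genes: by library total alone the empty vector value was -0.04 (adjusted p = 0.553), while the mitochondrial share of reads differed between these groups as given above. The call held when the mitochondrial genes were left out of the fit. That fit was still TMM-scaled and moved the median of all genes by only -0.01, so it says nothing about the library total value. The summed squamous markers, mostly CNFN, were also lower in the transfected libraries, and their part in the result was not tested.

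NFKB2 was at 118.0, 116.5 and 107.8 CPM in untreated cells, 107.0, 101.5 and 97.6 in empty vector cells and 104.9, 110.9 and 101.3 in FOXF1 cells. Every empty vector library was below every untreated one, but the log2 fold change of -0.16 ± 0.07 did not pass (adjusted p = 0.081). It passed without untreated replicate 3 (-0.21, adjusted p = 0.0441) or empty vector replicate 1 (-0.20, adjusted p = 0.0435), and with RLE factors (-0.19, adjusted p = 0.0488) and DESeq2 (-0.19, adjusted p = 0.0294). RELB, the other noncanonical subunit, had log2 fold changes of -0.19 and -0.20 with the empty vector and the FOXF1 plasmid (adjusted p = 0.131 and 0.167), and its untreated libraries were above all transfected ones. NFKB1, the precursor of p50, had 0.04 and 0.01. REL, the lymphoid subunit, had 12 to 34 reads per library, and 43.3% of its exon bases are shared with a noncoding gene on the same strand, which makes its level uncertain.

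Of the 6 inhibitors and feedback regulators, TNIP1 (chromosome 5, 151029945 to 151093577, minus strand) was read at 295.9, 271.4 and 270.7 CPM in untreated cells, 320.2, 296.0 and 316.9 in empty vector cells and 330.5, 354.5 and 310.3 in FOXF1 cells. The plasmid libraries were all above the untreated ones and overlapped with the empty vector libraries. TNIP1 rose by 0.25 ± 0.07 on the log2 scale with the FOXF1 plasmid, from 279.3 ± 14.4 to 331.7 ± 22.1 CPM (adjusted p = 0.0148). The call was lost without untreated replicate 2 (0.22, adjusted p = 0.11) or replicate 3 (0.21, adjusted p = 0.0712) and without FOXF1 plasmid replicate 2 (0.19, adjusted p = 0.153). Against untreated cells the empty vector gave 0.16 ± 0.07 (adjusted p = 0.0986), and the FOXF1 plasmid against the empty vector gave 0.09, with a 95% interval from -0.04 to 0.23. By library total alone TNIP1 passed in both transfected groups, at 0.40 with the empty vector (adjusted p = 1.55e-05) and 0.40 with the FOXF1 plasmid (adjusted p = 4.76e-05).

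NFKBIA, the inhibitor IkappaB alpha and a direct target that is resynthesised after activation, was at 35.5, 39.4 and 41.4 CPM in untreated cells, 43.2, 41.8 and 41.4 in empty vector cells and 39.3, 44.6 and 41.8 in FOXF1 cells. The empty vector libraries were above the untreated ones, one of them by only a small margin, and the log2 fold change of 0.12 ± 0.08 did not pass (adjusted p = 0.301). By library total alone NFKBIA passed in both transfected groups (0.36 and 0.25, adjusted p = 0.00199 and 0.0421). TNFAIP3, which encodes A20, was at 3.402 ± 0.345, 4.28 ± 0.370 and 3.63 ± 0.270 CPM in untreated, empty vector and FOXF1 plasmid cells, with a log2 fold change of 0.33 ± 0.18 for the empty vector (adjusted p = 0.216). The empty vector libraries of TNFAIP3 did not overlap with the untreated ones, and it was among the genes called higher by library total alone (0.58, adjusted p = 0.0154). The IkappaB genes NFKBIB and NFKBIE had log2 fold changes from -0.15 to 0.05 over the 3 comparisons. NFKBIZ, an atypical nuclear IkappaB, had 41 to 63 reads per library and fold changes from -0.15 to -0.02.

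**Figure D3:**
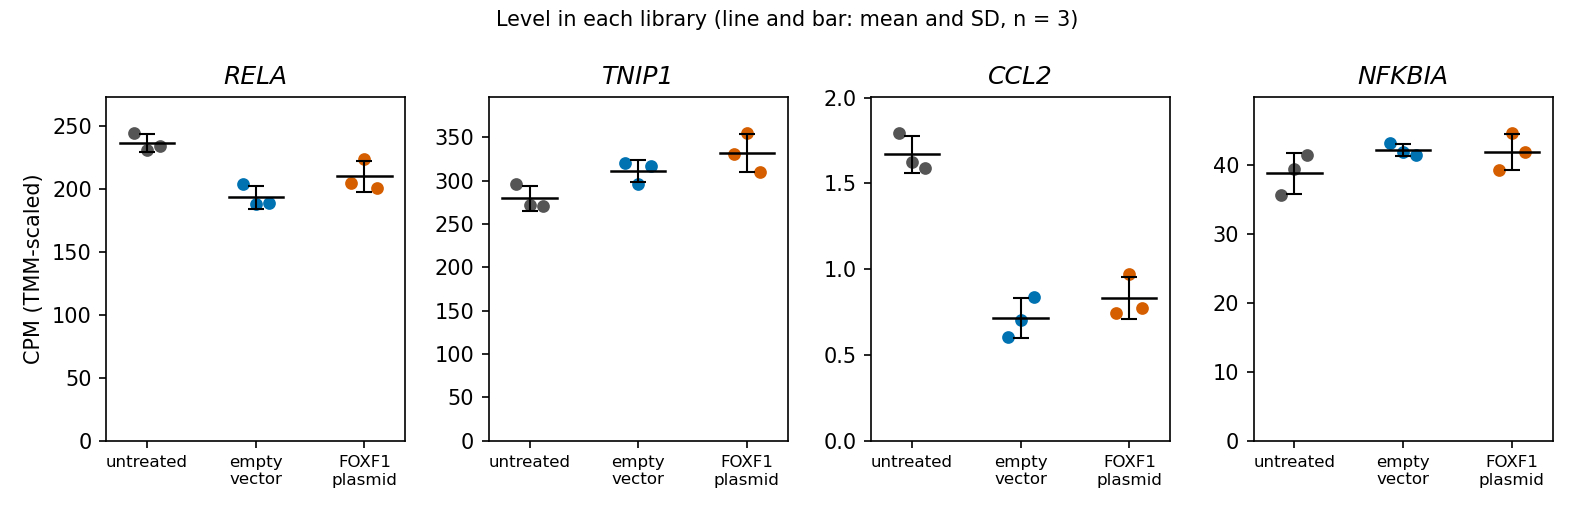
CPM on TMM-scaled library sizes of RELA, TNIP1, CCL2 and NFKBIA in each library, with the mean and SD of each group (n = 3) as line and bar and every axis starting at 0. RELA and CCL2 of the untreated libraries lie above all transfected libraries, and NFKBIA, which was not called, is shown for contrast.

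Among the survival, adaptor and adhesion genes none passed in any comparison on TMM-scaled sizes. ICAM1, the leukocyte adhesion molecule of activated epithelium, was at 88.98 ± 4.29, 91.9 ± 2.54 and 92.7 ± 7.07 CPM in untreated, empty vector and FOXF1 plasmid cells, with log2 fold changes of 0.05 and 0.06 against untreated cells and both 95% intervals between -0.09 and 0.20. By library total alone ICAM1 passed in both (0.29 and 0.20, adjusted p = 0.00214 and 0.0436). An antisense gene overlaps 22.0% of its exon bases, and the strand setting of the counting is not given in the sources used here. TNFAIP2 was at 86.8 ± 3.85, 96.6 ± 3.65 and 92.95 ± 2.14 CPM, and its transfected libraries were all above the untreated ones (log2 fold changes 0.15 and 0.10, adjusted p = 0.0896 and 0.396). By library total alone TNFAIP2 passed in both (0.40 and 0.25, adjusted p = 7.70e-05 and 0.0127). BIRC2, an inhibitor of apoptosis that restrains noncanonical signalling, had 3.97 ± 0.935, 5.30 ± 0.728 and 4.88 ± 0.461 CPM. Its log2 fold change of 0.42 ± 0.18 for the empty vector (adjusted p = 0.111) passed without untreated replicate 2 (0.62, adjusted p = 0.0321) or empty vector replicate 1 (0.51, adjusted p = 0.048) and by library total alone (0.66, adjusted p = 0.0104). Its paralog BIRC3 had 0.31 ± 0.23 (adjusted p = 0.384).

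TRAF1, an adaptor of the tumour necrosis factor receptors, was at 2.47, 1.85 and 1.84 CPM in untreated cells, 1.89, 1.997 and 1.65 in empty vector cells and 0.994, 1.18 and 1.68 in FOXF1 cells. The plasmid libraries were below all untreated ones, and the highest of them overlapped with the empty vector group. The log2 fold change was -0.68 ± 0.27 against untreated cells (adjusted p = 0.124) and -0.52 ± 0.27 against the empty vector, with a 95% interval from -1.08 to 0.03. PTGS2, the inducible cyclooxygenase, had 2 to 29 reads per library, and its log2 fold change of 1.16 ± 0.63 for the empty vector did not pass (adjusted p = 0.209).

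The 8 cytokines included 4 with enough reads. LIF, a cytokine of the interleukin 6 family, was the highest on the scale per kb at 3.20 ± 0.338, followed by IL18 at 1.66 ± 0.133 and IL11 at 1.28 ± 0.228 (SD, n = 9). LIF stood at 12.1 ± 0.841, 13.1 ± 1.28 and 12.8 ± 2.02 CPM in untreated, empty vector and FOXF1 plasmid cells, with log2 fold changes of 0.11 ± 0.12 and 0.08 ± 0.12. IL18, an epithelial cytokine that is activated from a stored precursor, stood at 4.37 ± 0.118, 4.51 ± 0.138 and 4.18 ± 0.610 CPM, with fold changes of 0.05 and -0.06. IL11 had 2.21 to 4.47 CPM, with the lowest value in untreated replicate 3. IL6 was at 1.68, 0.882 and 0.822 CPM in untreated cells, 0.807, 0.772 and 1.02 in empty vector cells and 0.547, 0.853 and 0.773 in FOXF1 cells. The high value of untreated replicate 1 stood apart from the others, the groups overlapped, and the log2 fold change of -0.64 ± 0.37 for the plasmid did not pass (adjusted p = 0.334). As for ICAM1, an antisense gene overlaps part of the IL6 exon bases (20.7%), and the strand setting of the counting is not given. Over the 4 cytokines the fold changes of the FOXF1 plasmid against the empty vector ran from -0.26 to -0.04.

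Of the chemokines, CCL2 (chromosome 17, 34255218 to 34257203, plus strand), the main attractant of monocytes, was lower in both transfected groups. It had 63, 59 and 56 reads in untreated cells, 24, 31 and 36 in empty vector cells and 30, 33 and 29 in FOXF1 cells. In CPM these were 1.79, 1.63 and 1.59, then 0.606, 0.704 and 0.837, then 0.746, 0.971 and 0.773, so that all transfected libraries lay below all untreated ones. CCL2 fell by 1.22 ± 0.32 on the log2 scale with the empty vector, from 1.67 ± 0.108 to 0.715 ± 0.116 CPM (adjusted p = 0.00641), a call that held in all 18 alternatives, with values from -1.34 to -0.97. With the FOXF1 plasmid it fell by 1.01 ± 0.32 to 0.830 ± 0.123 CPM (adjusted p = 0.0439). Among the alternatives, this call was lost without any one of the 3 untreated or 3 FOXF1 plasmid libraries and without empty vector replicate 2, with adjusted p from 0.052 to 0.135 and values from -0.94 to -1.14, and with library total scaling (-0.86, adjusted p = 0.0608), and DESeq2 gave it no adjusted p. The FOXF1 plasmid against the empty vector gave 0.21 with a 95% interval from -0.47 to 0.89. Of the marker sums given above, that of the squamous list, made up mostly of CNFN, was lower in every transfected library, as CCL2 was. That of the leukocyte list, made up mostly of CD14, reached higher values there. Their part in the result was not tested. In cultures, fewer cells that make a transcript and less of it per cell cannot be told apart.

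CXCL2, a neutrophil attractant, was at 0.341, 0.413 and 0.397 CPM in untreated cells, 0.328, 0.704 and 0.581 in empty vector cells and 0.696, 0.706 and 1.04 in FOXF1 cells. The plasmid libraries were above all untreated ones, with a log2 fold change of 1.08 ± 0.45 that did not pass (adjusted p = 0.141), and they overlapped with the empty vector group. CXCL1 had 12 to 31 reads per library and fold changes of 0.05, 0.11 and 0.06 in the 3 comparisons. The transcripts of these paralogs are alike: 8.99% of the 50-base windows of CXCL2 transcripts also occur in CXCL3 and 3.88% in CXCL1, so reads from such stretches cannot be assigned to a gene with certainty. CCL5, a T cell attractant with 2 to 24 reads per library and, like TNF, an uncertain level because it has a further entry, spread widely within each group, from 0.0497 to 0.507 CPM with the FOXF1 plasmid.

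CSF1, the growth factor of macrophages, was the only abundant colony-stimulating factor, at 69.6 ± 3.38, 69.5 ± 3.23 and 73.1 ± 5.02 CPM in untreated, empty vector and FOXF1 plasmid cells. Its log2 fold change for the empty vector was 0.00, with a 95% interval from -0.14 to 0.14, and by library total alone it was 0.24 and passed (adjusted p = 0.00771). CSF2, which drives granulocyte and macrophage growth, had 9 to 39 reads per library. Its log2 fold changes of 0.68 ± 0.51 and 0.83 ± 0.51 against untreated cells did not pass (adjusted p = 0.392 and 0.372), and the groups overlapped.

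Other genes of the pathway, taken from lists of upstream signalling, further inhibitors, further targets and receptors, are set beside these. Of 36 tested upstream genes 2 rose and 3 fell with the empty vector, and 3 rose and 0 fell with the FOXF1 plasmid. These are 13.9% and 8.33% of the list, against 19.6% and 8.52% of all tested genes, so in either direction the list was not called more often. By direction, 10.2% of all tested genes were called higher and 9.37% lower with the empty vector. With the FOXF1 plasmid the calls of the list were all higher, at 8.33% against 4.63% of all tested genes called higher. By the rule for named genes, MAP3K14, the NF-kappaB-inducing kinase of the noncanonical pathway, rose by 0.33 ± 0.09 and 0.37 ± 0.09, and the receptor TNFRSF1A by 0.22 ± 0.06 and 0.27 ± 0.06 on the log2 scale (adjusted p = 0.00766, 0.00734, 0.015 and 0.00679). RNF31 and SHARPIN, subunits of the linear ubiquitin ligase, fell by 0.25 and 0.35 with the empty vector (adjusted p = 0.0315 and 0.000305), and by library total alone these values were -0.01 and -0.11, without a call. Of 12 further inhibitors, TAX1BP1, an adaptor of A20, rose by 0.55 and BCL3, a nuclear IkappaB, fell by 0.36 with the empty vector (adjusted p = 0.0134 and 0.00027), the latter at -0.11 without a call by library total alone, and none passed with the FOXF1 plasmid. The 2 called are 16.7% of that list, against 19.6% of all tested genes.

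Of 18 tested further targets, 5 rose and 0 fell in empty vector cells and 4 rose and 0 fell in FOXF1 cells. These are 27.8% and 22.2% of the list, against 10.2% and 4.63% of all tested genes called higher. All these lists were chosen with earlier results of these data known, so such contrasts describe the lists and test nothing about the pathway. IER3, an early response gene, went from 12.7 ± 0.853 CPM in untreated cells to 17.1 ± 0.835 in empty vector cells and 19.5 ± 1.96 in FOXF1 cells (log2 fold changes 0.44 ± 0.11 and 0.62 ± 0.11, adjusted p = 0.00327 and 0.000176). MMP9, a gelatinase, rose by 0.81 ± 0.24 and 0.98 ± 0.24 (adjusted p = 0.0143 and 0.00735). Of 11 tested receptors and related genes, 4 rose and 0 fell with the empty vector (36.4%), against 10.2% of all tested genes called higher. With the FOXF1 plasmid 1 rose and 0 fell (9.09%), against 4.63% of all tested genes called higher. CSF2RA, a chain of the CSF2 receptor, rose by 1.28 ± 0.22 and 0.94 ± 0.22 in the 2 transfected groups (adjusted p = 8.51e-05 and 0.00643). IL6R, the interleukin 6 receptor, rose by 0.58 ± 0.17 with the empty vector (adjusted p = 0.0154). None of the genes in these lists passed between the transfected groups. Leaving out untreated replicate 2 ended the calls of TNFRSF1A and MMP9 in both comparisons, of RNF31 and IL6R for the empty vector and of CSF2RA for the FOXF1 plasmid (adjusted p from 0.0515 to 0.137). Without untreated replicate 1 the empty vector calls of TNFRSF1A, RNF31, TAX1BP1, MMP9 and IL6R were lost (adjusted p from 0.061 to 0.148). Those of RNF31, TAX1BP1, MMP9 and IL6R were lost without empty vector replicate 2 (0.056 to 0.117), and those of RNF31, TAX1BP1 and IL6R without replicate 3 (0.0512 to 0.145). For the FOXF1 plasmid, MAP3K14 was lost without plasmid replicate 1 or 2 (0.0501 and 0.0853) and TNFRSF1A without replicate 2 (0.0711), and RLE factors ended the empty vector call of TNFRSF1A (0.0503). IER3, SHARPIN and BCL3 were not lost by leaving out any library.

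**Figure D4:**
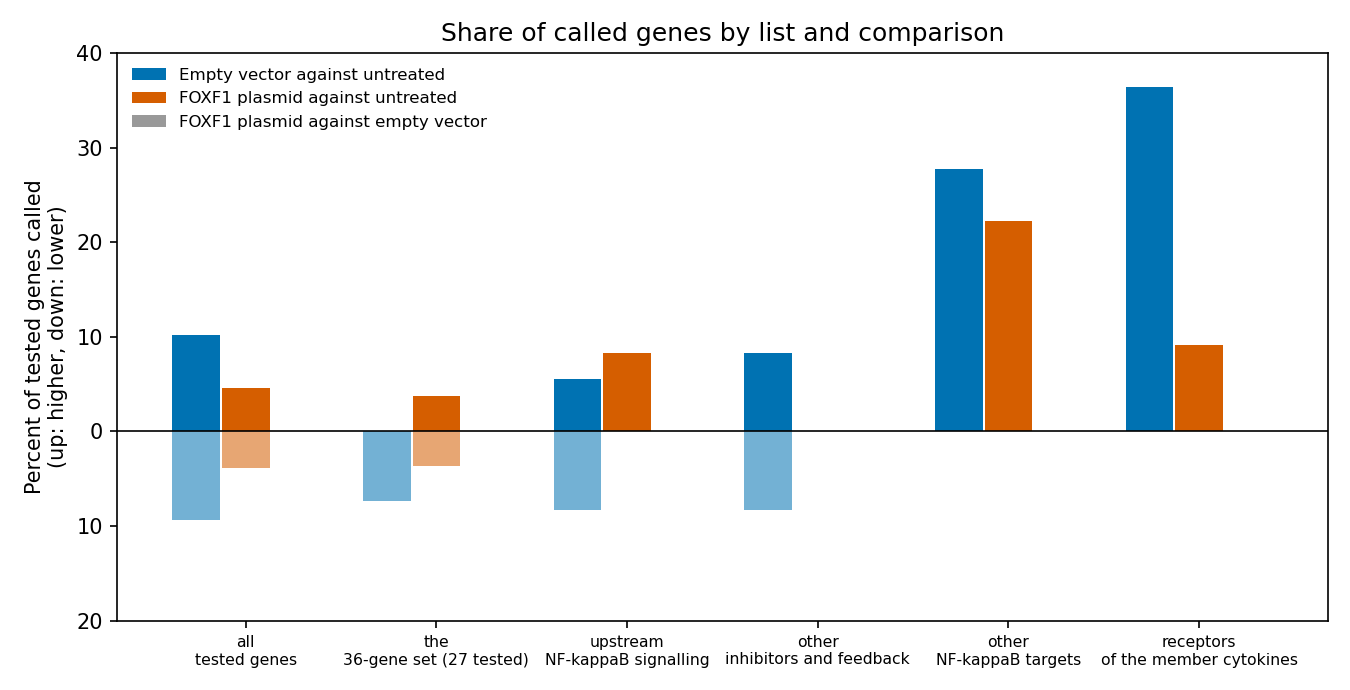
Percent of tested genes called at an adjusted p below 0.05 in each list and comparison, with higher calls above the zero line in full colour and lower calls below it in pale colour. The 36-gene set has no higher call with the empty vector, against 10.2% of all tested genes, and no gene of these lists was called between the transfected groups.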

How the data were processed

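The authors deposited unnormalised counts of reads by Ensembl gene for the 9 libraries, per the file headers. Libraries were strand-specific and made from mRNA (labels' protocols). The submitters' processing notes name bcl2fastq, STAR 2.5.2b, HTSeq and GRCh38. The strand setting, annotation release and handling of multiply mapped reads are unknown: not given in the sources used here. Coordinates and exon lengths are those of GENCODE release 29, with the exons of all transcripts of a gene merged.

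Counts were fitted whole with edgeR 4.0.16 in R 4.3.3. The filter was filterByExpr with a minimum count of 10, which kept 16366 genes. Library sizes were TMM-scaled, with a mean for each group over all 9 libraries. The test was glmQLFTest, p-values were adjusted over all tested genes (Benjamini-Hochberg), and genes were called at an adjusted p below 0.05. SE was taken as the size of a log2 fold change over the root of its F. The fit was also run on counts simulated from its own estimates of spread and library size, which does not test the scaling between groups. The outcome of that run is not given here. DESeq2 1.42.0 and limma-voom (limma 3.58.1) were among 18 alternatives.

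Replicate pairs differed by more than sampling noise (chi-square per degree of freedom 8.96 to 24.4). The design text calls the triplicates biological, so that p-values rest on the spread of 3 cultures each, as far as the labels tell. The 36 genes and the other lists were chosen with earlier results of these data known. Genes called in at least 1 comparison were given in every library, the other tested genes more briefly, and from each further list at most the 2 largest rises and 2 largest falls whose log2 CPM averaged 1 or more; others that are named or given by library were chosen after their values were seen.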

Additional observations from a re-analysis of the deposited data

How the results depend on the processing

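Of the 27 tested genes, 2 were called between empty vector and untreated cells, 2 between FOXF1 plasmid and untreated cells, and 0 between the transfected groups, where 0 held under all 18 alternatives. Scaling by library total alone raised the first to 11 and the second to 5, and turned CSF1 from 0.00 to a called 0.24 for the empty vector. Leaving out a library gave 2 to 4, 0 to 2 and 0 calls in the 3 comparisons. The replicate block gave 1 call between FOXF1 plasmid and untreated cells (CCL2 lost, adjusted p = 0.0534) and changed no other count. The numbers did not pair the libraries, since deviations of same-numbered libraries correlated from -0.09 to 0.08 over 9 pairs, so the block is given for completeness only. DESeq2, limma-voom, RLE factors, omission of mitochondrial genes, other filters and fits of only the compared groups kept each count within 1.5 times. Over all genes, the first comparison had 3209 calls, 6059 by library total and 2092 to 3897 with a library left out. The second had 1394, 2500 by library total and 817 to 1729 with a library left out. The third had 9, but 108 with DESeq2, 96 without a filter, 16 with RLE factors or the replicate block, 4 without mitochondrial genes and 1 to 326 with a library left out. In rare genes read number limits the precision: 7 of the 10 whose log2 CPM averaged below 1 had an interval past 2-fold between the transfected groups.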
